A study of Mus musculus with 8 samples.

Results

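The muscle myosin light chain genes Myl1, Myl2, Myl3, Myl4, Myl6b and Mylpf were examined together with Mylk2, the gene of the skeletal myosin light chain kinase. They were taken by gene symbol, and all 7 were on the array, with 8 of its 25697 probes and among its 16593 named genes. Myl1 had 2 probes and each of the other members had 1. The samples were tibialis anterior muscles, a fast hindlimb muscle, from male C57BL/6 mice of 8 weeks. In 4 muscles a plasmid carrying spermine oxidase, an enzyme that turns spermine into spermidine, had been transfected 7 days before harvest, and 4 control muscles had received a control plasmid for the same time. The labels do not name the promoter of the plasmid, the insert of the control plasmid or the share of fibres transfected. Nothing in them ties a muscle to an animal, and the spread behind each p-value is that between these 8 arrays and may in part be technical.

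A myosin molecule carries light chains of 2 kinds on the lever arm of each head, an essential chain and a regulatory chain. Fast fibres use the essential chain made by Myl1 and the regulatory chain made by Mylpf, while slow fibres and the heart ventricle use the chains made by Myl3 and Myl2. Myl4 makes the essential chain of embryonic skeletal muscle and of the heart atrium, and Myl6b makes a further essential chain of slow muscle. The kinase made by Mylk2, switched on by calcium and calmodulin, phosphorylates the regulatory chain and raises the force of fast fibres.

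All values are log2 signals as deposited, and differences are spermine oxidase minus control. Single values on the arrays ran from 8.10 to 15.29, with a median of 8.33. A probe near either end of that range has little room to move, so a small difference there does not show a small difference in mRNA. Each of the 5 Smox probes separated the groups, higher after spermine oxidase, without overlap. For the brightest, ILMN_1247267, the lowest spermine oxidase muscle read 11.56 and the highest control muscle 11.15. The 6 markers of mature skeletal fibres read between 13.72 and 15.09 in every muscle, and the 6 markers of heart muscle (Myh6, Nppa, Nppb, Tnni3, Myl7 and Mybpc3) lay at the floor, between 8.17 and 8.46.

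RefSeq windows matched 6 of the 7 members, all but Mylk2. The 250 bases before the start are shown for Myl4 and Myl6b, which had the largest negative differences of the 7 members, and for Myl3 and Mylpf as a slow and a fast chain. The windows are credited to RefSeq, build GRCm38.p6, and lie at chr11:104550413-104550662 (plus strand) for Myl4, chr10:128498686-128498935 (minus strand) for Myl6b, chr9:110763428-110763677 (plus strand) for Myl3 and chr7:127211358-127211607 (plus strand) for Mylpf. They read along the gene from 5′ to 3′. Capitals mark matches, on either strand, to 4 motifs of muscle promoters: the E-box CANNTG, the MCAT element CATTCC, the MEF2 site and the CArG box.
Myl4: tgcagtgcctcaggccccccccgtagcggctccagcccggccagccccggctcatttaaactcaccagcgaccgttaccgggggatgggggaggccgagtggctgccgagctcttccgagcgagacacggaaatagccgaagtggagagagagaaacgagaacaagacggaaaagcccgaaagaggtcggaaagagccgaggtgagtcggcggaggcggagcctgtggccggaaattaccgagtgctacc
Myl6b: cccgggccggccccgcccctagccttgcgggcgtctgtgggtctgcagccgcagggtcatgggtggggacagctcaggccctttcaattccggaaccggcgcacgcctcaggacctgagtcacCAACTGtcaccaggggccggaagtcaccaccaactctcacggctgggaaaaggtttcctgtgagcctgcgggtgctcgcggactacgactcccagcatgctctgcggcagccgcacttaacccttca
Myl3: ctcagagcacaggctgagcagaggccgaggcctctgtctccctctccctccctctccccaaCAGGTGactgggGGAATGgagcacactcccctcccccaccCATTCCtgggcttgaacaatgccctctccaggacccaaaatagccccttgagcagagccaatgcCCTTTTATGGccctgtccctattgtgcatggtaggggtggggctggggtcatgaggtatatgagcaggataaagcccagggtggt
Mylpf: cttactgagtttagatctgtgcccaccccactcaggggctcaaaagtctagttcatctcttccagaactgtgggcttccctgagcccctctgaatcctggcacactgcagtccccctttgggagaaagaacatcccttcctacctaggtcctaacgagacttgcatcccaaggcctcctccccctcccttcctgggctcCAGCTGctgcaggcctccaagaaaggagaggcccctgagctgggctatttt
No 2 motifs overlapped in these windows. The Myl4 window held none of the 4 motifs, and the Myl6b window held 1 E-box, which began 127 bases before the start. The Mylpf window also held 1 E-box. The Myl3 window held 1 E-box, 2 MCAT elements and 1 CArG box, whose first base lay 85 bases before the start. Of 32851 windows of this length, 66.2% held an E-box, 12.6% an MCAT element, 2.92% a MEF2 site and 1.47% a CArG box. A match is a run of letters and was not tested as a binding site.

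Myl4, the embryonic and atrial essential chain, was the member that differed most. In spermine oxidase muscles 1 to 4 it read 13.29, 13.50, 13.09 and 13.96, and in control muscles 1 to 4 it read 14.34, 14.18, 14.24 and 14.57. Every spermine oxidase muscle lay below every control muscle, with muscle 4 the highest of its group in both. The groups averaged 13.46 ± 0.37 after spermine oxidase and 14.33 ± 0.17 in control muscles (SD, n = 4 each). The difference was -0.87 ± 0.18 (SE), a 1.83-fold lower signal, with a 95% interval of -1.30 to -0.45. The exact two-sided permutation test gave p = 0.0286, the smallest that 70 splits of 4 against 4 allow. Adjusted over all 16593 genes, limma gave an adjusted p = 0.190, so Myl4 did not pass the threshold of 0.05.

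Myl6b, the slow-muscle essential chain, was lower by a smaller amount and lay close to the floor. Its signals were 8.59, 8.58, 8.43 and 8.77 in spermine oxidase muscles 1 to 4, against 9.02, 9.01, 8.74 and 9.30 in control muscles 1 to 4. The groups overlapped by a single pair, since spermine oxidase muscle 4 (8.77) read just above control muscle 3 (8.74). The means were 8.59 ± 0.14 after spermine oxidase and 9.02 ± 0.23 in control muscles (SD, n = 4 each), a difference of -0.42 ± 0.12 (SE). Its 95% interval was -0.70 to -0.15, with an exact permutation p = 0.0571 and a limma adjusted p = 0.272. With the lowest signal subtracted as background and an offset of 16 added, the same difference was -1.03, while that of Myl4 was -0.89. The size of the Myl6b difference therefore rests on how the floor is treated.

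**Figure D1:**
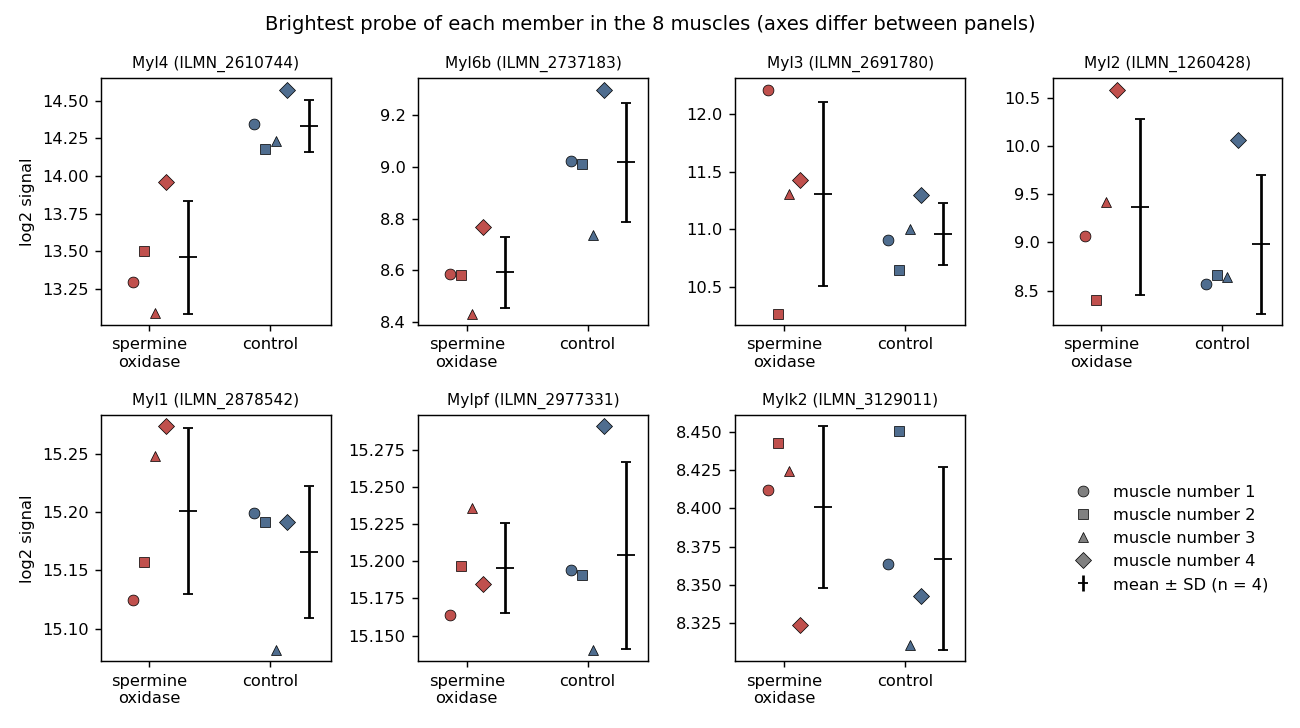
Log2 signal of the brightest probe of each member, with 1 panel a gene and its own vertical axis. Points are single muscles (spermine oxidase left, control right, symbol by muscle number as labelled) and bars are mean ± SD of 4 muscles; the Myl4 groups do not overlap, while muscle 4 is the highest for Myl2 in both groups.

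The slow and ventricular chains Myl3 and Myl2 were not lower on average. Myl3, the slow essential chain, read 12.21, 10.27, 11.30 and 11.43 in spermine oxidase muscles 1 to 4 and 10.91, 10.64, 11.00 and 11.29 in control muscles 1 to 4. The spermine oxidase group held both the highest and the lowest of the 8 values, and its SD was 0.80, against 0.27 in control muscles. The difference was 0.34 ± 0.37 (SE), with a 95% interval of -0.53 to 1.21 and a limma adjusted p = 0.800. Without spermine oxidase muscle 1 it was 0.040, and without spermine oxidase muscle 2 it was 0.69.

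Myl2, the slow regulatory chain, was the most variable member. It read 9.07, 8.40, 9.42 and 10.59 in spermine oxidase muscles 1 to 4 and 8.57, 8.66, 8.64 and 10.06 in control muscles 1 to 4. Muscle 4 was the highest in both groups, and the other control muscles lay within 0.1 of each other near the floor. The difference was 0.39 ± 0.52 (SE), with a 95% interval of -0.81 to 1.58 and a limma adjusted p = 0.839. Without spermine oxidase muscle 4 the difference was -0.019, and without control muscle 4 it was 0.75. Myh7, the slow heavy chain that these light chains accompany, read 8.17 to 8.24 on its 1 probe in every muscle, so this array gives no measure of it.

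The adult fast chains lay at the top of the scale and had small differences. Mylpf, the fast regulatory chain, read 15.16, 15.20, 15.24 and 15.19 in spermine oxidase muscles and 15.19, 15.19, 15.14 and 15.29 in control muscles. The control values spanned the spermine oxidase values. The difference was -0.0085 ± 0.03 (SE, 95% interval -0.087 to 0.070), but signals this close to 15.29 may be compressed. Myl1, the fast essential chain, read 15.12, 15.16, 15.25 and 15.27 in spermine oxidase muscles and 15.20, 15.19, 15.08 and 15.19 in control muscles on its brightest probe, ILMN_2878542. The groups overlapped, and the difference was 0.035 ± 0.04 (SE, 95% interval -0.064 to 0.13).

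The second Myl1 probe, ILMN_2694907, lay further from the top and had the other sign. It read 13.80, 13.60, 13.77 and 13.75 in spermine oxidase muscles and 14.01, 13.82, 13.81 and 13.69 in control muscles. The groups overlapped through control muscle 4, the lowest of its group. The difference was -0.10 ± 0.07 (SE, 95% interval -0.27 to 0.066), with an exact permutation p = 0.314. After quantile normalization the brightest probe also turned to -0.036, so neither direction holds for Myl1. Myl1 makes a long and a short protein from separate start sites, and the platform table gives both probes the same transcript.

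Mylk2, the skeletal light chain kinase, read 8.41, 8.44, 8.42 and 8.32 in spermine oxidase muscles and 8.36, 8.45, 8.31 and 8.34 in control muscles. All 8 values lay close to the array median of 8.33, at the floor, and the groups overlapped. The difference was 0.033 ± 0.04 (SE, 95% interval -0.054 to 0.12), and a probe at the floor gives no measure of this kinase.

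In all, 0 of the 7 members passed an adjusted p of 0.05 in limma, and 0.00% of the 16593 genes did. At an unadjusted p under 0.05 there were 2 members, Myl4 and Myl6b, both lower, where 11.0% of all genes passed in either direction and 4.72% passed as lower. The groups did not overlap for 1 member, Myl4, where 6.18% of all genes did not overlap and 2.51% did so as lower. With counts this small, the shares of the members and of all genes cannot be set apart. The median difference was 0.033 over the 7 members and -0.00064 over all genes, and 3 members were lower and 4 higher by any amount.

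**Figure D2:**
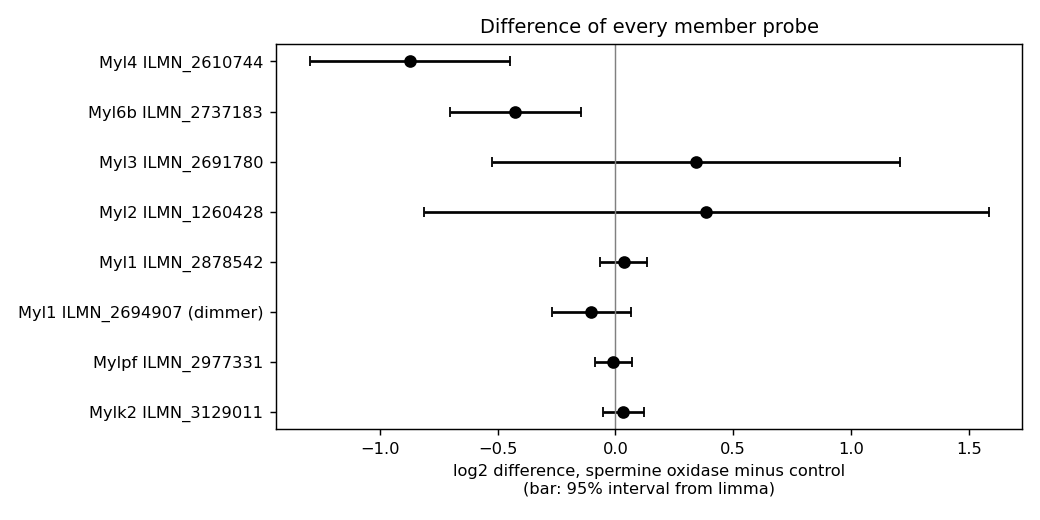
Log2 difference (spermine oxidase minus control) of each member probe, with bars for the 95% interval from limma and the dimmer Myl1 probe marked. The intervals of Myl4 (-1.30 to -0.45) and Myl6b (-0.70 to -0.15) lie below 0 without adjustment, and those of Myl3 and Myl2 are the widest.

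Unequal change between members was read within each muscle, as the log2 signal of 1 chain minus that of another on the same array. This cancels what all signals of an array share, but Myl1 and Mylpf lie at the top of the scale, so a difference taken against them mainly repeats the values of the other chain and does not measure the ratio of the mRNAs. Myl4 minus Myl1 was -1.83, -1.66, -2.16 and -1.31 in spermine oxidase muscles 1 to 4, against -0.86, -1.01, -0.85 and -0.62 in control muscles 1 to 4. The groups did not overlap, and the difference between them was -0.91 (exact permutation p = 0.0286, the smallest possible). Against the dimmer Myl1 probe, which lies further from the top, the same quantity was -0.51, -0.10, -0.69 and 0.21 in spermine oxidase muscles 1 to 4 and 0.33, 0.36, 0.43 and 0.89 in control muscles 1 to 4. The groups again did not overlap, with a difference of -0.77 (exact permutation p = 0.0286), a check chosen after seeing the data.

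The slow chains set against their fast counterparts gave nearly the values of Myl3 and Myl2 alone. Myl3 minus Myl1 averaged -3.90 ± 0.81 after spermine oxidase and -4.21 ± 0.28 in control muscles (SD, n = 4 each), a difference of 0.31 (exact permutation p = 0.514). Without spermine oxidase muscle 1 this difference was -0.021, and against the dimmer Myl1 probe with all muscles it was 0.44 (exact permutation p = 0.343). Myl2 minus Mylpf averaged -5.83 ± 0.92 after spermine oxidase and -6.22 ± 0.66 in control muscles (SD, n = 4 each), a difference of 0.39 (exact permutation p = 0.543). Without spermine oxidase muscle 4 it was -0.014. For both, the values of the groups overlapped.

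**Figure D3:**
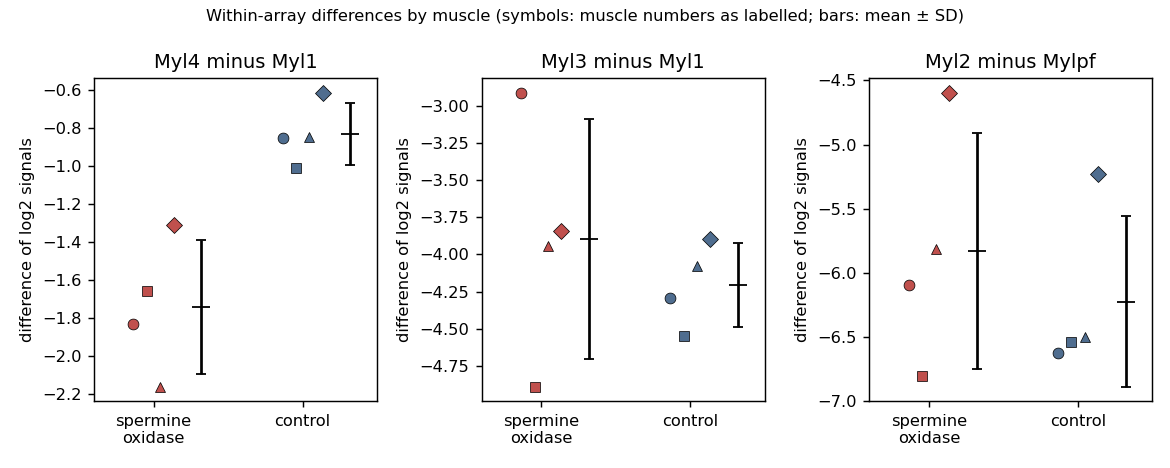
Differences between the log2 signals of 2 light chains on the same array, with 1 point a muscle (symbol by muscle number) and bars for mean ± SD of 4 muscles. Myl4 minus Myl1 separates the groups, from -2.16 to -1.31 after spermine oxidase and from -1.01 to -0.62 in control muscles, and the other pairs overlap.

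The genes whose pattern over the 8 muscles was most like that of each member were found by Pearson correlation of brightest probes, as a description with no test. The 8 points hold both groups, so r was also taken after each group's mean was removed. For Myl4 the nearest were Atp1b4, a muscle protein related to sodium pump subunits (r = 0.989, and 0.957 within groups), Grb10, an adaptor of growth factor receptors (0.986, and 0.963 within groups), and Tnni1, the slow troponin I (0.982, and 0.937 within groups). All 3 were lower after spermine oxidase without overlap, by -1.29 ± 0.24, -0.79 ± 0.20 and -0.86 ± 0.20 (SE), with limma adjusted p-values of 0.179, 0.251 and 0.222. Genes picked by likeness over both groups tend to differ as their member does, so such differences are no separate evidence. For Myl6b they were Eppk1, an epiplakin (r = 0.990), Drp2, a dystrophin-related protein (0.988), and Trappc2l (0.983), with differences of -0.095 ± 0.03, -0.36 ± 0.11 and -0.080 ± 0.03. Eppk1 lay near the floor, with means of 8.35 after spermine oxidase and 8.44 in control muscles.

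For Myl2 and Myl3 the nearest genes were mostly at the floor. Those of Myl2 were Ticam1, Nipal4 and Rfx6, whose group means ran from 8.21 to 8.32. Those of Myl3 were Spdye4a and Teddm1a, also at the floor, and Gde1, at 12.48 after spermine oxidase and 12.44 in control muscles. The nearest genes of Myl1 (Artn, Fdxacb1 and Csn2), Mylpf (Rabif, Kdsr and Svs4) and Mylk2 (Elmo3, B4galt2 and Exoc3) differed between the groups by less than 0.05 on the log2 scale. Among them Artn, Fdxacb1, Csn2, Kdsr, Svs4 and B4galt2 also lay at or near the floor. Correlations between such small movements are weak descriptions of likeness.

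Among the members, Myl4 and Myl6b tracked each other (r = 0.911, and 0.736 within groups), while Myl4 and Myl3 did not (r = -0.27, and -0.0043 within groups). Myl2 and Myl3, the pair used together in slow fibres, had r = 0.505, and 0.461 within groups. Over all 8 muscles Myl2 was weakly related to Myl4 (r = 0.089) and Myl6b (0.182), but within groups its values were 0.653 and 0.659. It likewise had r = 0.727 with Tnnt1, 0.622 with Tnni1 and 0.797 with Atp2a2 within groups, where muscle 4 was the highest of its group for each of these genes. Myl6b was close to the slow troponin T gene Tnnt1 (r = 0.979, and 0.945 within groups), and Myl4 to the perinatal heavy chain gene Myh8 (r = 0.969, and 0.945 within groups). For Myl3 the values with Tnnt1 and Myh8 were -0.12 and -0.38, and within groups 0.210 and -0.22.

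The genes listed as slow fibre partners were lower, as Myl4 and Myl6b were. All 8 measured slow fibre partners were lower, where 50.8% of all genes were, with a median difference of -0.71. Of these, 5 had an unadjusted p under 0.05 and 2 did not overlap, where 4.72% and 2.51% of all genes did so as lower. The rest of the 8, without such a p, differed by -0.37 to -0.16 and overlapped. The list was chosen with earlier results of these data known, so its counts are a description and not a test. Tnni1 read 9.27, 9.49, 8.99 and 9.85 in spermine oxidase muscles 1 to 4, against 10.24, 10.23, 9.96 and 10.62 in control muscles 1 to 4, without overlap. Casq2, a calsequestrin of slow fibres, differed by -0.75 ± 0.20, Tnnt1 by -0.72 ± 0.21 and Atp2a2, the slow-fibre calcium pump, by -0.70 ± 0.21 (SE). Of the 9 fast fibre partners measured, 8 were higher and 1 lower, where 50.8% of all genes were lower, with a median of 0.049. This list too was chosen with earlier results of these data known, so its count is a description. Most of its genes lay near the top of the scale, where differences may be compressed. At an unadjusted p under 0.05 there was 1, where 11.0% of all genes passed in either direction. That 1 was Pvalb, parvalbumin, at 0.050 ± 0.02 near the top of the scale. Casq1, the fast calsequestrin, differed by 0.27 ± 0.14, Actn3, the fast actinin, by 0.13 ± 0.06 and Tnnc2, the fast troponin C, by 0.049 ± 0.03. On the other Actn3 probes the difference was 0.13 ± 0.07 and, on the one furthest from the top, 0.45 ± 0.16. None of the slow or fast partners passed over all genes in limma.

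Genes of immature fibres were also lower. All 9 measured were lower, 7 at an unadjusted p under 0.05 and 4 without overlap, with a median of -0.71. Over all genes 50.8% were lower, 4.72% at an unadjusted p under 0.05 and 2.51% without overlap. This list too was chosen with earlier results of these data known, so its counts are a description. Ncam1, an adhesion molecule of immature fibres, differed by -0.63 ± 0.16, Chrng, the fetal acetylcholine receptor subunit, by -0.88 ± 0.24, Igf2, a fetal growth factor, by -0.87 ± 0.24 and Sln, sarcolipin, by -0.84 ± 0.23 (SE), and none passed over all genes in limma. Of 5 sarcomeric heavy chain genes measured, 4 were lower by any amount, where 50.8% of all genes were. Of these, Myh7 and Myh6 lay at the floor and another differed by only -0.095 ± 0.08 (SE) with overlap. The count therefore does not show a general fall of heavy chains. Myh8 read 13.15, 13.87, 12.79 and 14.69 in spermine oxidase muscles 1 to 4, against 14.82, 14.91, 14.73 and 15.13 in control muscles 1 to 4. Its dimmer probe, further from the top, differed by -1.73 ± 0.42 and the brightest by -1.28 ± 0.38 (SE). As for Myl4, spermine oxidase muscle 4 lay nearest to the control group. Myh4, the fastest heavy chain, differed by 0.34 ± 0.11 (limma adjusted p = 0.325), and Myh6, the atrial heavy chain, by -0.077 ± 0.02 at the floor.

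**Figure D4:**
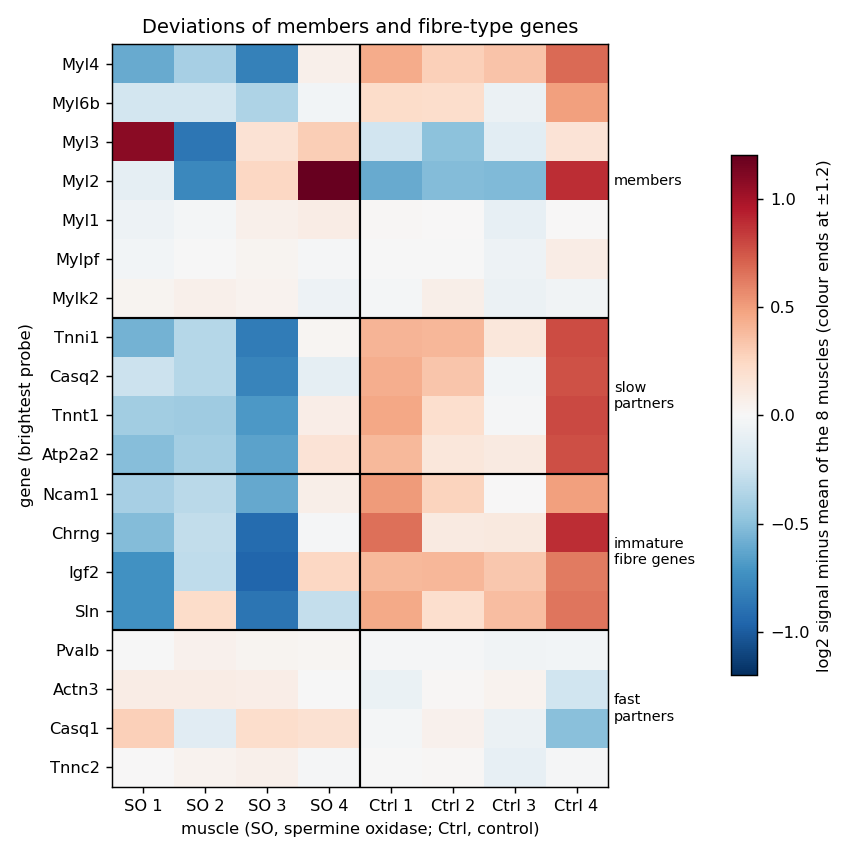
Deviation of each gene's log2 signal from its mean over the 8 muscles, by gene (rows, members first and then the 4 genes with the smallest p of each fibre list) and muscle (columns, SO for spermine oxidase and Ctrl for control; colours end at ±1.2). Myl4 and Myl6b are lower on average after spermine oxidase, as Tnni1 and Tnnt1 are, while Myl3 and Myl2 are not, and muscle 4 is high within its group for Myl2 as for Tnnt1.

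Genes that act on or beside the regulatory chain were measured in part. Of 10 listed kinases, phosphatase subunits and calmodulins, 6 were measured, and 2 were higher at an unadjusted p under 0.05, both without overlap. Over all genes 11.0% passed that limit and 6.18% did not overlap, in either direction. Calm3, a calmodulin gene, read 12.68, 12.53, 12.72 and 12.66 in spermine oxidase muscles and 12.36, 12.35, 12.40 and 12.42 in control muscles. Its difference was 0.26 ± 0.04 (SE, limma adjusted p = 0.179). Ppp1cb, the catalytic subunit of myosin phosphatase, read 10.24, 9.89, 10.29 and 10.37 in spermine oxidase muscles and 9.87, 9.77, 9.73 and 9.77 in control muscles, a difference of 0.41 ± 0.10 (limma adjusted p = 0.233). Spermine oxidase muscle 2 was the nearest to the control group for both genes. Mylk, the smooth muscle light chain kinase, differed by 0.11 ± 0.06, and Ppp1r12c, a targeting subunit of myosin phosphatase, by -0.0098 ± 0.03 near the floor, where its second probe differed by 0.051. The second Mylk probe differed by 0.15 ± 0.04, and the other Ppp1cb probes by 0.29 ± 0.10 and, at the floor, by -0.019. The list's median was 0.052.

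No other light chain gene separated the groups. Of 5 measured, 3 were lower and 2 higher, 0 had an unadjusted p under 0.05 in limma or separated the groups, and the median difference was -0.0065. Over all genes 11.0% passed that limit and 6.18% did not overlap, so 0 of 5 does not set these genes apart. Myl6, the light chain of smooth muscle and non-muscle myosin, differed by -0.18 ± 0.16, Myl12b, a non-muscle regulatory chain, by -0.14 ± 0.13 (0.099 and 0.036 on its dimmer probes), Myl10 by 0.19 ± 0.13 and Myl7, the atrial regulatory chain, by 0.029 ± 0.02 at the floor. The atrial partner of Myl4 was thus at the floor in every muscle.

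In whole muscle, fewer fibres or cells of a type and less RNA in each cannot be told apart. Summed over its genes, the marker list of satellite cells and myoblasts, the precursors of new fibres, ran from 10.47 to 10.83 after spermine oxidase and from 10.69 to 11.07 in control muscles (log2 of the sum). Of its 4 measured genes 3 were lower by any amount, among them Pax7 by -0.0089 at the floor, where Myf5 also lay. Myog differed by -0.49 ± 0.21 and Myod1 by -0.16 ± 0.07, and both are also on the list of immature fibre genes. Macrophage markers, 4 of 6 measured, ran from 13.14 to 13.90 after spermine oxidase and from 13.61 to 14.42 in control muscles. Lyz2, the brightest of them, weighs most in that sum and differed by -0.38 ± 0.26, while Cd163 was higher without overlap, by 0.22 ± 0.04, and Adgre1 and Ptprc differed by -0.061 ± 0.16 and -0.010 ± 0.08. Cd163 and Ptprc lay near the floor, and the second Cd163 probe, at the floor, differed by 0.022 ± 0.01. The other Adgre1 probes differed by -0.22 ± 0.10 and -0.056 ± 0.07. Of the 4 genes 3 were lower, against 1 when spermine oxidase muscle 1 was left out. Fibroblast markers, 4 of 4 measured, ran from 14.49 to 14.83 after spermine oxidase and from 14.55 to 14.93 in control muscles. Dcn, the brightest of them, weighs most in that sum and differed by 0.013 ± 0.04. The other 3 were lower with overlap, Col3a1 by -0.55 ± 0.40, Col1a1 by -0.26 ± 0.30 and Pdgfra by -0.20 ± 0.10. Smooth muscle markers, 5 of 6 measured, ran from 13.10 to 13.59 after spermine oxidase and from 13.33 to 13.91 in control muscles, with Cnn1 and Tagln at the floor. Acta2 weighs most in that sum and differed by -0.38 ± 0.17, but 3 of the 5 were higher, among them Myh11 by 0.28 ± 0.10 and Tagln by 0.067 ± 0.03, both without overlap. Endothelial markers, 4 of 4 measured, ran from 11.22 to 11.39 after spermine oxidase and from 11.05 to 11.13 in control muscles, without overlap and with Kdr at the floor. The part of these cells in the Myl4 and Myl6b differences was not tested. The heart marker list ran from 10.82 to 10.85 after spermine oxidase and from 10.83 to 10.85 in control muscles.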

How the data were processed

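Total RNA of 8 muscles was amplified and labelled with biotin per the labels' protocols, and measured on 1 bead array each. The authors deposited log2 signals, a scale that follows from their range. Sorted arrays differed by no more than 0.155 at the same position, so the values had been normalized between arrays. The method and the background treatment are not stated in the sources read. Of 25697 probes, 23978 had 1 gene in the platform annotation, 0 had several and 1719 were unnamed here. Identifiers of 23962 probes were found in RefSeq (GRCm38.p6).

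The probe with the highest 8-array mean stood for its gene. The groups were tested in limma 3.58.1 (R 4.3.3; lmFit, eBayes, two-sided, Benjamini-Hochberg over all genes, threshold 0.05), without a replicate block. Probes were not filtered. Single values were also tested by exact permutation over samples (scipy 1.17.1). The fit was tested on simulated data. Arrays give no depth, and their number limits the precision.

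The members, the gene lists and the tests were chosen with earlier results of these data known. The text names the members, Smox, the 3 genes most correlated with each member and, from each list, at most the 4 genes of smallest p. Markers at the floor are named as well. Alternatives were the block, normalization, filters, probe rules, variance models, an offset of 16 and leaving out muscles.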

Additional observations from a re-analysis of the deposited data

Results flagged for a closer look

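In 22 groups of 4 values (each member probe and each within-array difference, in each group of muscles), 3 had a muscle far from the rest of its group, where chance alone gives about 1 in 20. The within-array differences reuse the member values, so these groups are not independent and the count cannot be set against that share. Myl2 read 10.06 in control muscle 4, against at most 8.66 in the other control muscles. Myl2 minus Mylpf was therefore -5.23 in that muscle, and -6.50 in the next. Muscle 4 was also the highest of the spermine oxidase group for Myl2, at 10.59. Myl1 read 15.08 in control muscle 3, against 15.19 in the nearest control muscle, at the top of the scale.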

How the results depend on the processing

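Myl4 stayed lower under all 21 alternatives, by -1.04 to -0.74, and Myl6b by -1.03 to -0.33. For a gene with 1 probe, several of these cannot change the difference. They are the block, the filters, the probe rules, the intensity trend and the unmoderated test. Only the normalizations, the array weights, the offset and leaving out muscles could move it. Neither passed in limma in the unpaired fits, with adjusted p-values of 0.108 to 0.543 for Myl4 and 0.164 to 0.626 for Myl6b. Whether equal numbers pair the muscles is not known, since no label links them. Deviations from the group means correlated at 0.584, -0.13, 0.653 and 0.600 for numbers 1 to 4, so 3 of 4 pairs passed the 0.1 asked of every pair. The same 3 spermine oxidase muscles correlated best with their own number, a hint from the data and not the design, and muscle 2 with control muscle 3. With the replicate block 266 genes passed instead of 0, and 2 members did, Myl4 (limma adjusted p = 0.0372) and Myl6b (0.0271). So did 5 of the 8 slow partners, Tnni1, Tnnt1 and Casq2 (0.0159 each) and Atp2a2 (0.0255) among them, 3 of the 9 immature fibre genes, Calm3 and Acta2. By number, Myl4 differed by -1.05, -0.68, -1.15 and -0.61 and Myl6b by -0.44, -0.43, -0.30 and -0.53, while Myl2 differed by 0.50, -0.26, 0.78 and 0.53. The same within-array differences tested by number kept their values, with Myl4 minus Myl1 at an exact permutation p = 0.125, the smallest possible. Over all genes, limma with a robust prior and intensity trend passed 8, the offset 1, and leaving out 1 muscle 0 to 14, where 14 is without spermine oxidase replicate 2. Members without overlap numbered 1 to 2 when 1 muscle was left out, the second being Myl3 or Myl6b. Of all 16593 genes, 1392 to 2056 then did not overlap, instead of 1025. Members at an unadjusted p under 0.05 in limma numbered 2 to 3, where 1361 to 2177 of all genes passed, instead of 1833. A further member in either count is therefore not set apart from all genes. Some directions turned. The small difference of Myl1 was -0.036 after quantile normalization, -0.033 as the mean of its probes and -0.10 on its second probe. That of Mylpf was 0.0062 with array weights and -0.030 to 0.021 when 1 muscle was left out. Mylpf was 0.031 without control 4 and spermine oxidase 1 together, an alternative chosen after seeing the data. Larger differences also turned when 1 muscle was left out. Myl2 then ran from -0.019 to 0.75, Myl3 minus Myl1 from -0.021 to 0.64 and Myl2 minus Mylpf from -0.014 to 0.73. The cause of these turns was not tested. Without control 4, spermine oxidase 1, spermine oxidase 4 or the first pair together, all 8 slow partners and all 9 immature fibre genes were still lower, with medians of -0.85 to -0.54 and -0.81 to -0.55, a check also chosen after seeing the data. Mylk2 had no value without the dimmest 60% of probes. Signals near either end of the scale limit Mylk2, Myl6b, Myl1 and Mylpf.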
